A study of Mus musculus with 6 samples.

Results

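Cells that prepare to grow take up amino acids and iron through a small set of surface proteins, and 10 genes of this kind were followed here among the 55414 genes of the deposited table. They encode 8 amino acid transporters or transporter subunits (Slc7a5, Slc3a2, Slc7a6, Slc43a1, Slc1a5, Slc38a1, Slc38a2 and Slc7a1), the transferrin receptor (Tfrc) and the transcription factor MYC (Myc). The members were chosen by gene name, with earlier results of these data known, and each name matched 1 protein-coding gene. The libraries came from natural killer (NK) cells, lymphocytes that can kill a target without prior sensitisation, taken from the livers of wild-type mice. In 3 libraries the mice had received metformin at 200 mg/kg for 3 days, and in 3 they had received phosphate-buffered saline (PBS); all 6 are labelled day 3. Metformin is a diabetes drug and a known inhibitor of mitochondrial complex I. Strain, age, sex, route and the gate used to isolate the cells are not given in the sources used here.

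Resting NK cells carry little of this machinery, and activation by cytokines raises it. SLC7A5 pairs with the heavy chain SLC3A2 (together CD98) to bring in leucine and other large neutral amino acids in exchange for glutamine, and the amino acids so gained keep the kinase complex mTORC1 active and the short-lived MYC protein stable. The transferrin receptor (CD71) carries iron-loaded transferrin into the cell, and its mRNA is stabilised by iron regulatory proteins when iron is scarce. Surface CD98 and CD71 are therefore used as markers of anabolic activation in NK cells.

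The 3 metformin libraries held 22983788, 24266803 and 22152167 estimated reads, and the 3 PBS libraries 27263681, 24838302 and 30161214. NK cell markers were high in both groups, with 7 genes summing to 11239 to 13231 CPM (counts scaled to library size) with metformin and 11448 to 12381 CPM with PBS. Of these 7, Eomes, the factor that sets NK cells apart from ILC1, read 216, 212 and 208 CPM in metformin libraries 1 to 3 and 312, 342 and 329 CPM in PBS libraries 1 to 3, and Itga2 read 86.4 to 154 CPM with metformin and 169 to 197 CPM with PBS. Prf1 was also lower without overlap (1427 to 1802 CPM with metformin, 1852 to 1988 CPM with PBS), Klrb1c was higher without overlap (1909 to 2268 CPM with metformin, 1720 to 1887 CPM with PBS), and Ncr1, Klrk1 and Gzma overlapped. Markers of type 1 innate lymphoid cells (ILC1), liver-resident relatives of NK cells, summed to 1085 to 1153 CPM over 5 genes with metformin and 687 to 792 CPM with PBS. Genes of dividing cells summed to 114 to 137 CPM over 6 genes with metformin and 182 to 322 CPM with PBS. Neither the ILC1 list nor the dividing cell list overlapped between the groups (two-sided exact permutation p = 0.1 each, the smallest that 3 against 3 libraries allow). The sum of 6 T cell markers overlapped, at 81.2 to 251 CPM with metformin and 34.4 to 104 CPM with PBS. Of these, Cd3e (24.3 to 62.2 CPM with metformin, 6.92 to 21.3 CPM with PBS) was higher without overlap. So was Cd3d (25.0 to 51.1 CPM with metformin, 13.3 to 18.7 CPM with PBS), and Cd4, Cd5, Cd6 and Trac overlapped. Metformin 3 stood apart, with the highest sum of hepatocyte markers (279 CPM, against 53.7 to 139 CPM in the other 5 libraries). Its sum of macrophage and monocyte markers was also the highest (611 CPM, against 236 to 389 CPM), and Lyz2 alone gave 550 CPM of it. Adgre1, Cd68 and C1qa were also highest in metformin 3 (14.7, 21.7 and 9.20 CPM). Csf1r was lowest there (14.1 CPM, against 19.4 to 33.7 CPM), and Cd163 read 1.14 CPM. Between the groups, Adgre1 was higher without overlap (11.1 to 14.7 CPM with metformin, 2.5 to 7.02 CPM with PBS). So was C1qa (3.05 to 9.20 CPM with metformin, 0.295 to 1.25 CPM with PBS). Csf1r was lower without overlap (14.1 to 20.0 CPM with metformin, 27.2 to 33.7 CPM with PBS). So was Cd163 (0.96 to 2.85 CPM with metformin, 3.02 to 3.96 CPM with PBS), and Cd68, Lyz2 and Clec4f overlapped. Metformin 3 also read long genes lower (Spearman correlation with gene length -0.422, against -0.11 to 0.327). The labels do not state whether each library is a different animal, and the p-values cover only the differences among these libraries, technical ones included. In bulk RNA, fewer cells of a type and less RNA per cell cannot be told apart.

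Across all 10 genes, the clearest difference was a lower level of Slc7a5 after metformin, followed by Slc38a2 and Tfrc. Each of these 3 genes was lower in every metformin library than in every PBS library on CPM, while Tfrc overlapped on the deposited TPM. Myc itself, the heavy chain Slc3a2 and the abundant transporters Slc1a5 and Slc38a1 overlapped between the groups. No member had an adjusted p under 0.05 by the edgeR quasi-likelihood test over all 15527 genes, where 0% of genes passed. At an unadjusted p under 0.05, 3 of the 10 members were lower and 0 were higher, against 5.08% of all genes tested lower and 5.29% higher. Groups that did not overlap were found for the same 3 members, all lower (30% of members), where 9.63% of all genes were lower and 9.49% higher without overlap. The members, and the lists below, were chosen with earlier results of these data known, so such shares are descriptions and not tests. The median log2 fold change was -0.17 over the 10 members and 0.01 over all genes tested.

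**Figure D1:**
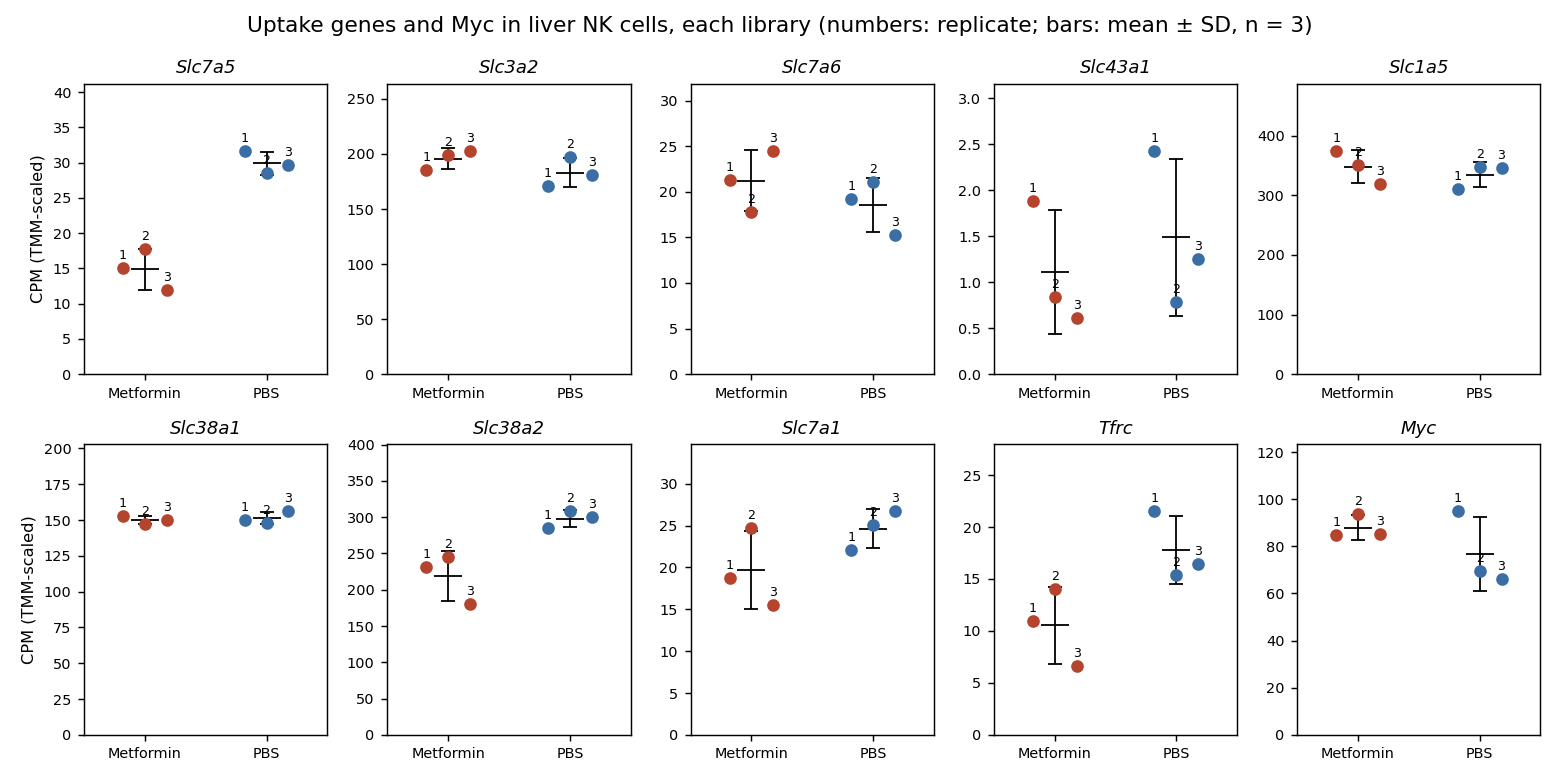
Level of each gene in each library, in TMM-scaled CPM on an axis from 0; points are libraries with their replicate number, and bars give the mean ± SD of 3 libraries. All metformin points lie below all PBS points for Slc7a5 (11.9 to 17.7 against 28.5 to 31.7 CPM), Slc38a2 and Tfrc, and the groups overlap for the other 7 genes.

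Tfrc carries the best known regulatory sequences among these genes, a row of iron-responsive elements in the 3′ untranslated region. Each is a hairpin with the loop CAGTGN, which iron regulatory proteins bind when iron is low. The same hairpin lies in the 5′ untranslated region of the ferritin genes Fth1 and Ftl1, where binding blocks translation. A search of GENCODE M21 transcripts (GRCm38) for an unpaired C, a paired stem of 5 bases and this loop found 4 elements in Tfrc and 1 each in Fth1, Ftl1 and the iron exporter gene Slc40a1. It found 0 in the iron transporter gene Slc11a2, and the search misses elements of any other form. An element of this form lay in an untranslated region of 175 of 22500 coding genes (0.778%). The 28-base windows are shown in DNA letters, 5′ to 3′, with the loop in capitals; Tfrc (chromosome 16) elements start at bases 3321, 3700, 3765 and 3812 of a transcript of 4890 bases.
Tfrc element at 3321: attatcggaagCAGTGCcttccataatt
Tfrc element at 3700: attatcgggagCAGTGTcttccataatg
Tfrc element at 3765: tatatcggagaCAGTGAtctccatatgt
Tfrc element at 3812: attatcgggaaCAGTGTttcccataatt
Fth1 element (chromosome 19): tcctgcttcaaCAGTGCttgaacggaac
Ftl1 element (chromosome 7): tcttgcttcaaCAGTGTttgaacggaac
The letters after the loop are the same in both ferritin windows and differ from those in the Tfrc windows. A match to this pattern is a description of the letters, and no binding was measured.

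Slc7a5 encodes the light chain that does the transport in the CD98 pair (ENSMUSG00000040010.11, chromosome 8, 122607889 to 122634433, minus strand, in the deposited table's coordinates, whose build the table does not name). Its level was 15.0, 17.7 and 11.9 CPM in metformin libraries 1, 2 and 3, against 31.7, 28.5 and 29.6 CPM in PBS libraries 1, 2 and 3. The PBS libraries lay close together, and the highest metformin library was well below the lowest of them. Slc7a5 averaged 14.9 ± 2.89 CPM with metformin and 30.0 ± 1.63 CPM with PBS (SD, n = 3 each), from 272 to 424 and from 695 to 899 estimated reads per library. The log2 fold change was -1.01 (SE 0.16, 95% interval -1.39 to -0.63), or 0.497 times the PBS level. Slc7a5 stood at place 21 of 15527 genes by edgeR p-value. Its edgeR adjusted p was 0.185, where the smallest of any gene was 0.125. DESeq2 called Slc7a5 (adjusted p = 4.84e-05), and it was the only member called by DESeq2, which called 0.979% of all genes lower. The same held for limma-voom with sample quality weights (adjusted p = 0.0476), which called 0.058% of all genes lower. With 1 library left out the log2 fold change of Slc7a5 was -1.16 to -0.88, the latter without metformin 3.

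Slc3a2 encodes the heavy chain (4F2hc) that carries Slc7a5 and several other light chains to the surface (ENSMUSG00000010095.14, chromosome 19, 8684246 to 8700733). It read 185, 199 and 203 CPM in metformin libraries 1 to 3 and 171, 197 and 181 CPM in PBS libraries 1 to 3. The groups overlapped, with a log2 fold change of 0.095 (SE 0.095, 95% interval -0.12 to 0.31; edgeR adjusted p = 0.734). A fold change the size of that of Slc7a5 lay outside this interval. On the TPM scale, in which reads are divided by transcript length so that genes can be compared, Slc3a2 exceeded Slc7a5 by 28.9, 26.7 and 40.9 times in metformin libraries 1 to 3 and by 12.8, 16.1 and 14.6 times in PBS libraries 1 to 3. The ratio was 32.2 ± 7.64 with metformin and 14.5 ± 1.67 with PBS (SD, n = 3 each, two-sided exact permutation p = 0.1). It was chosen after the values were seen.

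Slc7a6 (y+LAT2), which partners the same heavy chain and exchanges cationic for neutral amino acids, read 21.3, 17.8 and 24.5 CPM with metformin and 19.2, 21.1 and 15.3 CPM with PBS. Its groups overlapped (log2 fold change 0.19, SE 0.18; edgeR adjusted p = 0.717). Among the 6 light chain genes known to join Slc3a2, Slc7a5 held 20.2%, 29.3% and 20.0% of the summed TPM in metformin libraries 1 to 3, and 42.7%, 44.6% and 46.3% in PBS libraries 1 to 3. Slc7a6 held 48.9% to 64.3% with metformin and 42.0% to 44.8% with PBS, so it was the most abundant light chain transcript in every metformin library, while in PBS libraries 2 and 3 that was Slc7a5. The summed light chain TPM itself overlapped between the groups, at 25.5 ± 3.50 with metformin and 28.8 ± 2.03 with PBS (SD, n = 3 each, two-sided exact permutation p = 0.3). These ratios were chosen after the values were seen. The remaining light chains were scarce: Slc7a7 had 3.00 to 4.95 CPM with metformin and 2.47 to 2.72 CPM with PBS, Slc7a8 2.10 to 3.55 and 2.32 to 3.45 CPM, and Slc7a11 0.613 to 2.34 and 0.616 to 1.05 CPM. Slc7a10 had 0 to 9 reads per library with metformin and 0 to 4 with PBS and was not tested. Slc7a7 did not overlap between the groups but did not pass (log2 fold change 0.55, SE 0.295; edgeR adjusted p = 0.544).

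**Figure D2:**
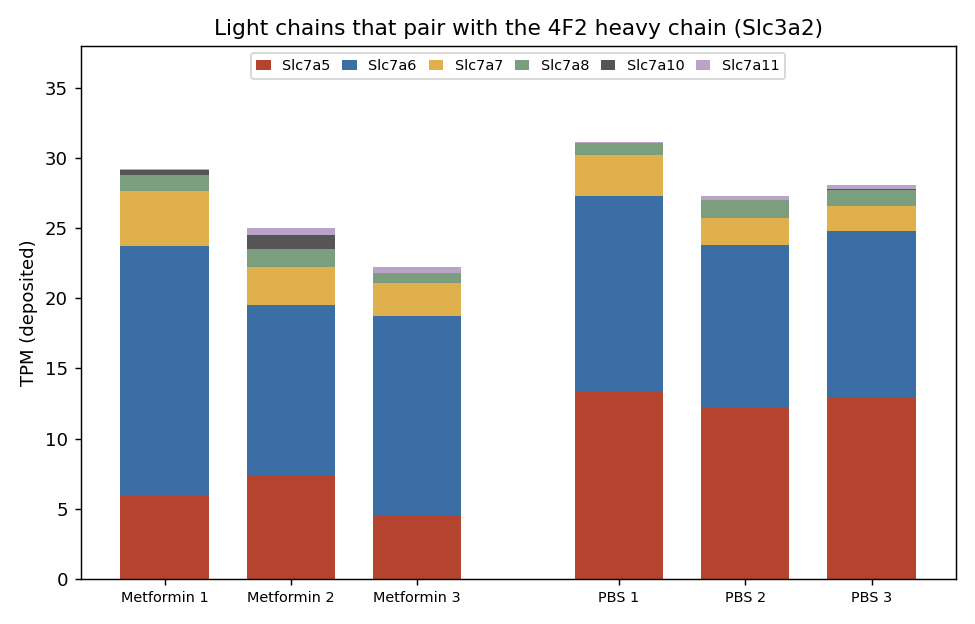
Deposited TPM of the 6 light chain genes that pair with Slc3a2, stacked for each library on an axis from 0. Slc7a5 (the lowest segment) is 4.46 to 7.35 TPM in the metformin libraries and 12.2 to 13.3 TPM in the PBS libraries, while Slc7a6 above it is 12.2 to 17.8 and 11.6 to 14.0 TPM.

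Slc43a1 (LAT3), a transporter of branched-chain amino acids that needs no partner, was the least abundant member. It read 1.88, 0.834 and 0.614 CPM with metformin and 2.43, 0.78 and 1.25 CPM with PBS, from 14 to 66 reads per library. Its log2 fold change of -0.42 had an interval of -1.80 to 0.95, so a difference was not detectable at this depth, and it turned to 0.11 without PBS 1.

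Of the sodium-coupled transporters, Slc38a2 (SNAT2), which takes up small neutral amino acids such as glutamine and alanine and is itself induced by amino acid shortage (ENSMUSG00000022462.8, chromosome 15, 96585273 to 96597611), read 231, 245 and 180 CPM in metformin libraries 1 to 3. In PBS libraries 1 to 3 it read 285, 308 and 300 CPM. All metformin values were below all PBS values, with metformin 3 the lowest. Slc38a2 averaged 219 ± 34.4 CPM with metformin and 298 ± 11.7 CPM with PBS (SD, n = 3 each). Its log2 fold change was -0.44 (SE 0.13, 95% interval -0.74 to -0.15; edgeR adjusted p = 0.34), and DESeq2 gave an adjusted p of 0.0532. Without metformin 3 the log2 fold change was -0.33, and it was -0.33 with the gene length trend of each library removed.

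Slc38a1 (SNAT1), its neighbour on chromosome 15 with the same kind of substrates, read 153, 147 and 150 CPM with metformin and 150, 148 and 156 CPM with PBS. The groups overlapped, with a log2 fold change of -0.01 (SE 0.08, 95% interval -0.21 to 0.18), whose sign turned under several settings. The TPM ratio of Slc38a2 to Slc38a1 was 1.70, 1.84 and 1.28 in metformin libraries 1 to 3 and 2.16, 2.29 and 2.16 in PBS libraries 1 to 3 (two-sided exact permutation p = 0.1). This ratio, too, was chosen after the values were seen. Slc1a5 (ASCT2), the main glutamine exchanger of many proliferating cells, was the most abundant member per length. It read 375, 351 and 319 CPM with metformin and 310, 347 and 346 CPM with PBS, with a log2 fold change of 0.06 (SE 0.10, 95% interval -0.17 to 0.29; edgeR adjusted p = 0.853). On TPM the log2 difference of Slc1a5 was -0.05, relative to a median over all genes of -0.08 on that scale.

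Slc7a1 (CAT1), the main importer of arginine and lysine, read 18.8, 24.7 and 15.5 CPM with metformin and 22.1, 25.1 and 26.7 CPM with PBS. Metformin 2 lay among the PBS libraries. The log2 fold change was -0.33 (SE 0.19, 95% interval -0.75 to 0.10; edgeR adjusted p = 0.562), -0.53 without metformin 2 and -0.19 without metformin 3.

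**Figure D3:**
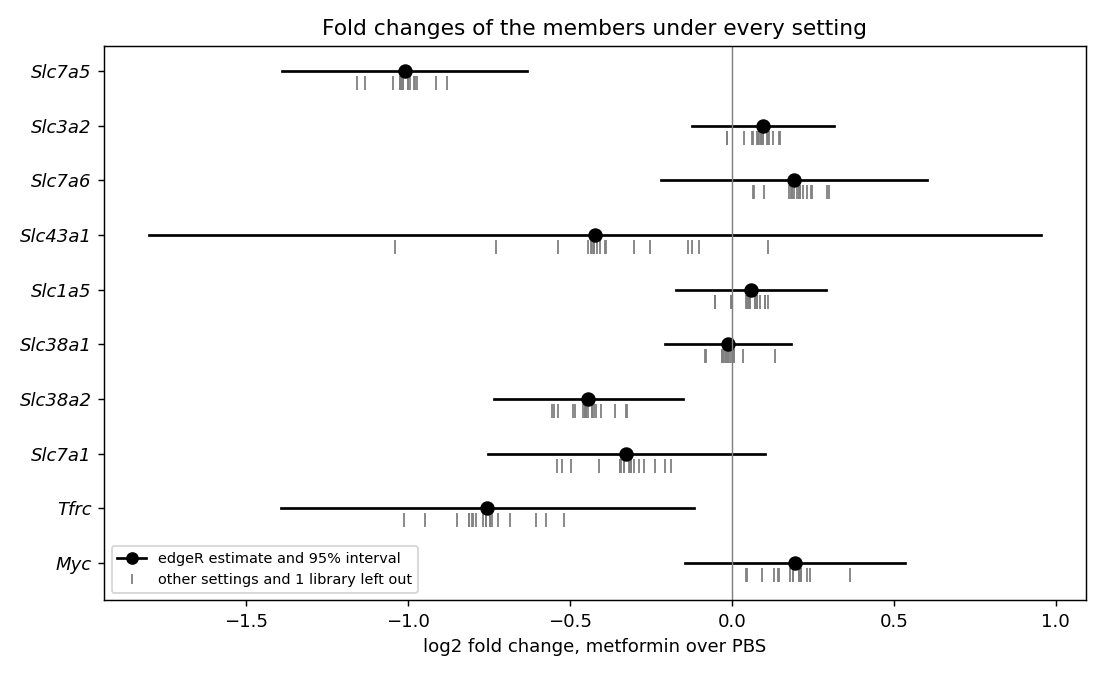
log2 fold change of each gene, metformin over PBS, with its 95% interval from edgeR (points and lines), and the value under each other setting and with each library left out (grey ticks). Slc7a5 lies between -1.16 and -0.88 under all of them, Slc38a2 between -0.56 and -0.33 and Tfrc between -1.01 and -0.52.

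Tfrc (ENSMUSG00000022797.17, chromosome 16, 32427738 to 32451612), the gene with the 4 pattern matches shown above, read 11.0, 14.0 and 6.66 CPM in metformin libraries 1 to 3. In PBS libraries 1 to 3 it read 21.5, 15.4 and 16.4 CPM. The groups were apart on this scale, with metformin 2 the closest to PBS 2. Tfrc averaged 10.5 ± 3.68 CPM with metformin and 17.8 ± 3.29 CPM with PBS (SD, n = 3 each), and its log2 fold change was -0.755 (SE 0.28, 95% interval -1.39 to -0.12; edgeR adjusted p = 0.439). Without metformin 3 it was -0.52, and -1.01 without metformin 2. On the deposited TPM the groups overlapped, at 4.92, 5.94 and 2.42 TPM with metformin and 8.65, 5.49 and 11.1 TPM with PBS. Without PBS 1, the library with the most dividing cell markers, the unadjusted edgeR p was no longer under 0.05 for Tfrc. Dividing cell markers were lower in all 3 metformin libraries, as given above, and their part in the values of Tfrc, Slc7a5 and Slc38a2 was not tested.

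A search of RefSeq promoter windows (GRCm38.p6, 250 bases before to 50 after each gene start) covered 6 of the 10 members. Slc7a5, Slc1a5, Slc38a1 and Myc had no window and were not searched, and sites outside the windows were not searched for any gene. The E-box CACGTG, the site bound by MYC with its partner MAX, lay in the window of Slc43a1 alone, against 7.15% of 32851 windows in all. The variant CACGCG, searched on both strands, lay in the windows of Tfrc alone, against 9.27% of all windows. The core TGATGNAA of the element bound by ATF4, the factor of the amino acid response, lay in 0 of the windows of these 6 members. It lay in 3.97% of all windows. The 250 bases before the first Tfrc start (chr16:32608646-32608895, plus strand) are shown with CACGCG in capitals. Tfrc was picked as a described MYC target that was lower in every metformin library on CPM, though not on TPM. A part of MYC in the Tfrc level was not tested.
Tfrc promoter: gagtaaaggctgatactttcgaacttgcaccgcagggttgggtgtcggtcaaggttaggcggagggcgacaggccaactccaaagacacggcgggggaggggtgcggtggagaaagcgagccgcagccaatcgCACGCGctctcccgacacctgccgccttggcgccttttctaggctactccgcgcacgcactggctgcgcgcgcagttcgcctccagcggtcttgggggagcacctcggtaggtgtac
These matches describe letters in a window and show no binding.

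Myc (ENSMUSG00000022346.18, chromosome 15, 61857240 to 61862223), the factor that drives ribosome production and nutrient use, read 84.9, 93.9 and 85.1 CPM in metformin libraries 1 to 3. In PBS libraries 1 to 3 it read 94.8, 69.7 and 66.0 CPM. PBS 1 was the highest of all 6 libraries, so the groups overlapped. Myc averaged 88.0 ± 5.13 CPM with metformin and 76.8 ± 15.7 CPM with PBS (SD, n = 3 each), and its log2 fold change was 0.195 (SE 0.15, 95% interval -0.145 to 0.535; edgeR adjusted p = 0.656). Without PBS 1 the log2 fold change of Myc was 0.36, and its unadjusted edgeR p was then under 0.05.

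Per length, the order of levels over the 6 libraries was Slc1a5 (mean 198 TPM), Slc3a2 (184), Slc38a2 (87.6), Myc (66.0), Slc38a1 (45.7), Slc7a6 (13.6), Slc7a1 (10.9), Slc7a5 (9.36), Tfrc (6.42) and Slc43a1 (0.804 TPM). The ranges over libraries overlapped between Slc1a5 and Slc3a2, between Slc38a2 and Myc, and between each neighbouring pair from Slc7a6 through Slc7a1 and Slc7a5 to Tfrc. The step from Slc38a1 (lowest library 42.2 TPM) to Slc7a6 (highest 17.8 TPM) was wider than either range. By mean TPM, Slc38a2 lay above 85.4% of all genes tested, Slc7a5 above 42.3% and Tfrc above 36.4%. The 3 members that were lower thus included an abundant transporter and a pair of transcripts nearer the middle of all genes tested.

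Among genes outside the list, the protein-coding genes closest in pattern to Slc7a5 over the 6 libraries were Dglucy, a D-glutamate cyclase, Pik3cb, a catalytic subunit of PI3 kinase, and Slc16a1, the lactate and pyruvate transporter MCT1. Their centred log2 CPM differed from that of Slc7a5 by a root mean square of 0.114, 0.131 and 0.131, where the median over 9876 genes was 0.542. Slc16a1 read 15.2, 15.1 and 12.9 CPM with metformin and 29.7, 23.7 and 27.9 CPM with PBS (log2 fold change -0.91, SE 0.145; edgeR adjusted p = 0.179). The closest to Tfrc were Ppfibp1, Nt5dc3 and Ptprs (0.116, 0.121 and 0.124), and the closest to Myc were Samd1, Tesk2 and Klrc3 (0.0711, 0.0725 and 0.0763).

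Other amino acid transporters were read from a list of 37 genes, of which 30 were abundant enough to test. At an unadjusted p under 0.05, 0 were lower and 0 higher by edgeR, against 5.08% and 5.29% of all genes, and DESeq2 called 0 at an adjusted p of 0.05, against 0.979% of all genes lower and 0.947% higher. The number lower at an unadjusted p under 0.05 was 4 on log2(TPM + 1), where 7.72% of all genes were lower, 2 by limma-voom with sample quality weights (6.56% of all genes) and 2 without metformin 3 (6.51%). The smallest p belonged to Slc43a3, a relative of Slc43a1 described as a purine transporter, with 10.9, 10.8 and 14.5 CPM in metformin libraries and 19.1, 15.4 and 13.6 CPM in PBS libraries (log2 fold change -0.405, SE 0.20; edgeR adjusted p = 0.517). The median log2 fold change of the tested genes was -0.14, and -0.02 with the gene length trend removed.

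Of 29 iron genes tested from a list of 31, 4 were lower (13.8%) and 3 higher (10.3%) at an unadjusted p under 0.05. Of all genes, 5.08% were lower and 5.29% higher. None of the iron genes passed when adjusted by edgeR. Steap3, the endosomal reductase that works beside the transferrin receptor to release its iron, read 7.44, 6.05 and 5.65 CPM with metformin and 11.4, 11.2 and 12.1 CPM with PBS. The log2 fold change of Steap3, the most negative of the 4, was -0.86 (SE 0.19, with an edgeR adjusted p of 0.269), and DESeq2 called it (adjusted p = 0.00886). Ireb2, the iron regulatory protein IRP2 that binds the elements shown, read 38.7, 46.2 and 40.8 CPM with metformin and 52.1, 54.1 and 51.1 CPM with PBS (log2 fold change -0.32, SE 0.11; edgeR adjusted p = 0.391). Aco1, which encodes the other such protein, IRP1, read 63.0, 56.5 and 40.6 CPM with metformin and 70.2, 67.1 and 74.2 CPM with PBS. Frrs1, a ferric reductase, read 11.6, 14.4 and 17.6 CPM with metformin and 22.3, 20.6 and 18.7 CPM with PBS.

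On the higher side, Fth1, the ferritin heavy chain that stores iron, read 797, 815 and 1109 CPM with metformin and 681, 693 and 748 CPM with PBS (log2 fold change 0.36, SE 0.14; edgeR adjusted p = 0.458). Without metformin 3 the log2 fold change of Fth1 was 0.18. On the deposited TPM the groups overlapped for Fth1 (1569 to 2096 TPM with metformin, 1463 to 1682 TPM with PBS). Trf, transferrin, a protein made mainly by hepatocytes, read 185, 184 and 291 CPM with metformin and 173, 161 and 158 CPM with PBS, with its highest value in the library that also had the most hepatocyte markers; the part of that library's other cells in Fth1 and Trf was not tested. Steap4, a metalloreductase, was scarce (1.36, 1.42 and 2.50 CPM with metformin, 0.295, 0.328 and 0.791 CPM with PBS). Ftl1, the ferritin light chain, overlapped between the groups (920, 903 and 1230 CPM with metformin, 924, 966 and 988 CPM with PBS), as did the iron transporter Slc11a2 (71.2 to 77.8 and 66.7 to 77.6 CPM). Aco1, Ftl1 and Slc11a2 were named after their values were seen. The number of lower iron genes was 2, 2 and 5 without metformin 1, 2 and 3, where 4.92%, 6.22% and 6.51% of all genes were lower, and 2, 1 and 3 without PBS 1, 2 and 3 (2.9%, 3.29% and 4.11% of all genes). The number of higher iron genes was 4, 3 and 3 without metformin 1, 2 and 3, where 4.13%, 5.49% and 4.9% of all genes were higher, and 1 without any one of PBS 1, 2 and 3 (4.52%, 3.19% and 4.08% of all genes).

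**Figure D4:**
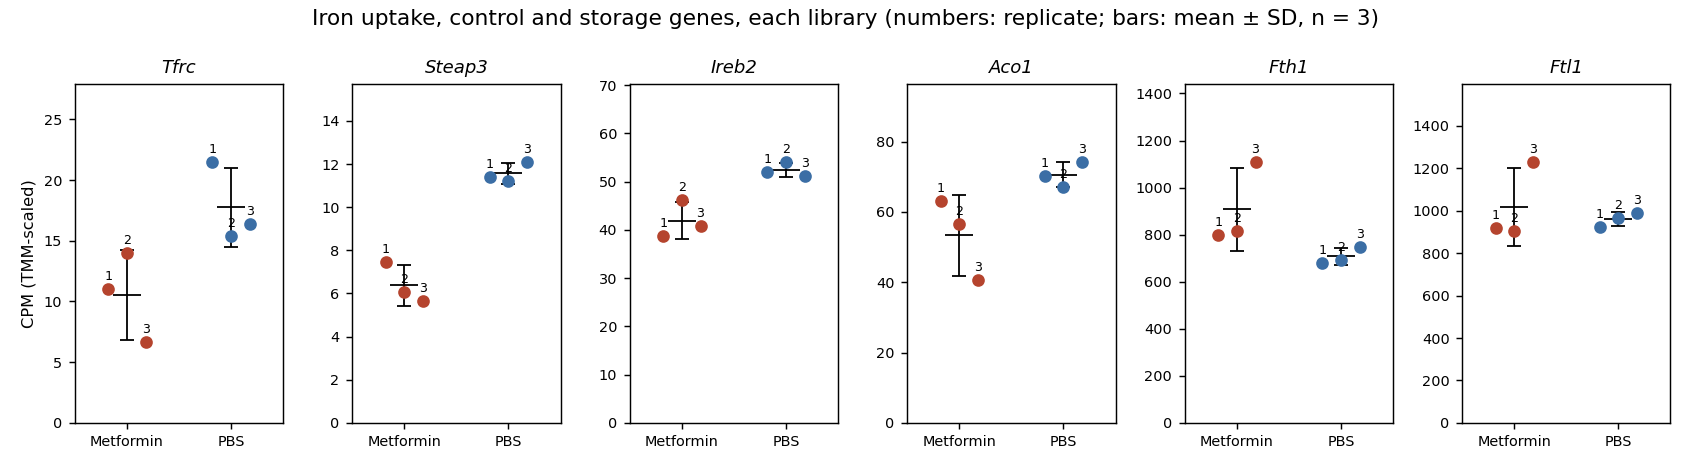
Level of 6 iron genes in each library, in TMM-scaled CPM on axes from 0; points are libraries with their replicate number, and bars give the mean ± SD of 3 libraries. Tfrc, Steap3, Ireb2 and Aco1 lie lower in all metformin libraries, Fth1 lies higher, most of all in metformin 3 (1109 CPM), and Ftl1 overlaps.

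All 53 genes described as MYC targets were tested. At an unadjusted p under 0.05 by edgeR, 12 were lower (22.6%) and 0 higher, where 5.08% of all genes were lower and 5.29% higher. None of the 53 passed when adjusted by edgeR, and DESeq2 called 1 at an adjusted p under 0.05. DESeq2 called 0.979% of all genes lower and 0.947% higher. The list median log2 fold change was -0.15. Ppat, which starts purine synthesis, read 42.9, 50.6 and 35.1 CPM with metformin and 58.1, 64.2 and 56.7 CPM with PBS, and Nop58, a nucleolar protein of ribosome assembly, 43.3, 46.3 and 42.9 CPM with metformin and 62.7, 60.9 and 47.7 CPM with PBS. Among the others were Ncl, Mthfd2, Srm, Nolc1, Dkc1, Wdr43, Hspd1, Rrp12 and Polr1b. Of the 53 genes 40 had a log2 fold change below 0.

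This count depended on the PBS libraries. It was 2 without PBS 1 and 2 without PBS 2, where 2.9% and 3.29% of all genes were lower, and 8 without PBS 3 (4.11% of all genes). It was 9, 8 and 13 without metformin 1, 2 and 3, where 4.92%, 6.22% and 6.51% of all genes were lower. With upper quartile scaling it was 5 (4.1% of all genes). Other settings raised it, to 15 by limma-voom with sample quality weights (6.56% of all genes) and 18 on log2(TPM + 1) (7.72%). Dividing cell markers were lower with metformin too, and their part in this count was not tested.

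Of 25 tested partners and regulators of MYC, 2 were lower (8.0%) and 1 higher (4.0%) at an unadjusted p under 0.05. These shares were near the 5.08% and 5.29% of all genes, and none passed when adjusted by edgeR. By groups that did not overlap, 6 of the 25 were lower and 1 higher, where 9.63% of all genes were lower and 9.49% higher. Mxd1, a repressor that competes with MYC for MAX, read 310, 322 and 240 CPM with metformin and 336, 388 and 400 CPM with PBS, and Mxd3, another such repressor found in dividing cells, 5.87, 2.96 and 4.86 CPM with metformin and 9.46, 6.20 and 7.29 CPM with PBS. Mlxip, the glucose-sensing factor MondoA of the same network, read 161, 178 and 202 CPM with metformin and 128, 137 and 141 CPM with PBS (log2 fold change 0.42, SE 0.11; edgeR adjusted p = 0.311). DESeq2 called Mlxip (adjusted p = 0.0446), where it called 0.947% of all genes higher. The list median was -0.10.

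Of 30 genes of mTORC1 and amino acid sensing, 2 were lower (6.67%) and 1 higher (3.33%) at an unadjusted p under 0.05, near the shares of all genes, and the median log2 fold change was -0.025. Rps6kb2, the kinase S6K2 downstream of mTORC1, averaged 95.7 ± 6.72 CPM with metformin and 74.6 ± 2.16 CPM with PBS (SD, n = 3 each). Its groups did not overlap on CPM but overlapped on the deposited TPM (37.5 to 55.5 with metformin, 41.9 to 44.5 with PBS). Sesn2, a leucine sensor that restrains mTORC1, read 27.3, 29.3 and 20.8 CPM with metformin and 39.0, 33.9 and 29.5 CPM with PBS. Eif2ak4, the kinase GCN2 that senses uncharged tRNA, read 17.2, 15.6 and 7.89 CPM with metformin and 22.7, 19.9 and 21.2 CPM with PBS, with metformin 3 far below the other libraries.

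**Figure D5:**
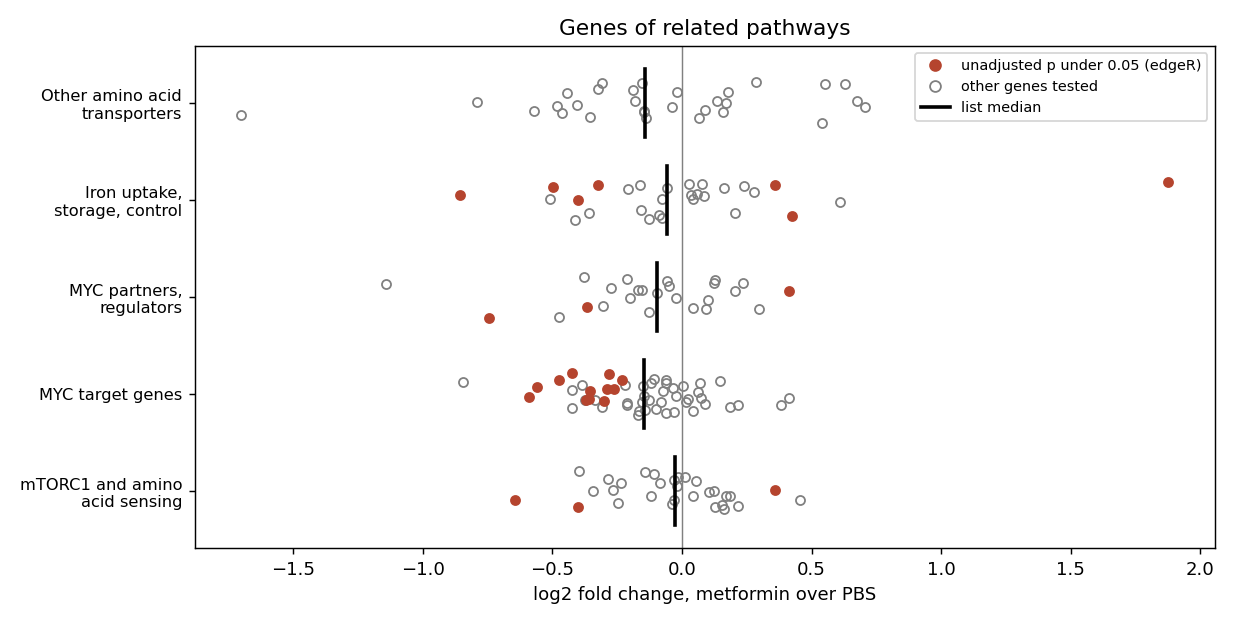
log2 fold change, metformin over PBS, of every tested gene of 5 related lists; filled points had an unadjusted edgeR p under 0.05 and bars mark list medians. MYC targets hold 12 filled points, all below 0, iron genes 4 below and 3 above 0, and the other amino acid transporters 0.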

How the data were processed

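Messenger RNA of 6 libraries was analysed, 3 per group, with groups taken from the treatment label. Per the labels' protocols, the RNA was taken through SMART-seq mRNA library preparation. DRAGEN appears in the submitters' processing notes beside 2 builds, mm10 and GRCm39, without saying what each served for. Alignment settings, strand and filters are not given in the sources used here. Per gene and library, the authors deposited an estimated count that is not whole and is not normalized, and a TPM value scaled to 1000000 per library. The deposited TPM is not a fixed multiple of the count of a gene. Of the value columns, 0 were left without a sample. Intervals and SE include the spread between libraries, and PCR copies cannot be told from molecules.

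Estimated counts were rounded and tested across all genes with edgeR 4.0.16 (quasi-likelihood test, TMM, filterByExpr, no covariate) in R 4.3.3; 15527 genes passed the filter, all 10 members among them. SE is the log2 fold change divided by the root of F. Adjusted p-values follow Benjamini and Hochberg over all genes tested. CPM are TMM-scaled. Other settings were DESeq2 1.42.0, limma 3.58.1 (voom, voom with weights, and log2(TPM + 1) or log2(TPM + 0.1)), other scalings, a lowess trend on gene length removed (span 0.3), other filters, the replicate number as a block and each library left out. The scripts were tested on simulated data. Named genes were the members and, per list, up to 3 genes in each direction with the smallest p under 0.05, or else the single smallest, except 1 gene that is not reported here; 237 of 239 list symbols matched. Members and lists were chosen with earlier results of these data known.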

Additional observations from a re-analysis of the deposited data

How the results depend on the processing

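The number of genes at an adjusted p under 0.05 over all genes was 0 in edgeR, 299 with DESeq2, 36 with limma-voom with sample quality weights, 1 with the gene length trend removed, 1 with no filter on low counts, 3 with the replicate block and 0 to 1 with a library left out (1 without metformin 3); edgeR gave 1610 genes at an unadjusted p under 0.05. The labels do not say whether the replicate numbers mark shared animals, and correlations between libraries do not settle it. In their deviations from the group means, same-numbered libraries correlated at 0.171, 0.0757 and 0.172. Differently numbered libraries correlated at -0.243 to 0.0763, and each same-numbered value was the highest for its metformin library. Under the block 7 MYC targets were lower at an unadjusted p under 0.05, against 12 without it, and Slc7a5, Slc38a2 and Tfrc were under 0.05 in both. The same 3 members were under 0.05 in every setting but those without metformin 2 (Slc7a1 as well) and without PBS 1 (Myc in place of Tfrc). Of 189 recomputed member fold changes 173 kept their sign and their side of an adjusted p of 0.05, 2 (Slc7a5) passed it, and 14 changed sign. Slc38a1 turned to 0.035 with upper quartile factors, 0.002 with library size only, 0.134 with the length trend removed, 0.002 with 5 CPM in 3 libraries, 0.006 with protein-coding genes only, and lay between -0.031 and 0.007 with a library left out. Slc3a2 turned to -0.016 and Slc1a5 to -0.052 on either TPM scale, where the median of all genes was -0.085 and -0.101. Slc1a5 was -0.004 without metformin 1 or PBS 1, and Slc43a1 ran from -1.039 to 0.111 (without PBS 1). The log2 difference of summed markers changed sign for NK cells (0.042 to -0.168), erythroid cells (0.141 to -0.018) and endothelial cells (-0.207 to 0.024) with the mean of log2(CPM + 1). With a library left out it ran from -0.021 to 0.097 for NK, -0.174 to 0.69 for B, -0.38 to 0.978 for hepatocyte, -0.279 to 0.516 for erythroid and -0.277 to 0.503 for macrophage markers. The cause of these changes was not tested. Depth limits Slc43a1, with 14 to 66 reads a library.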
